A study of Mus musculus with 6 samples.

Results

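Of the 312 genes in the deposited table of mouse fat from pups aged 6 days (P6) and adults aged 56 days (P56), 84 genes with a lower level at P6 are described here. They were chosen by their TPM, which is a transcript's share of all transcripts in a library after correction for length. For each member the mean TPM of the 3 P56 libraries was at least 1.3 times that of the 3 P6 libraries, all 3 P6 values lay below all 3 P56 values, and the mean estimated read count over the 6 libraries was at least 10. The rule also leaves out 14 genes by name, of which 10 (*Smpd3*, *Acta1*, *Neb*, *Col4a5*, *Mgp*, *Prelp*, *Aldh1a7*, *Dnajc3*, *Trip11* and *Aff1*) met the rest of it and 4 (*Lama5*, *Tmem119*, *Aebp2* and *Lmod1*) did not. Because the comparison of P6 with P56 itself chose the genes, the values at the 2 ages are a description and carry no test.

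Each age has 3 libraries, named here by the age and replicate number of their labels. The labels give the cells as adipose tissue macrophages, the immune cells that clear debris in fat, while the methods of the study give inguinal adipose tissue depots of C57BL/6 mice. Neither source gives a treatment or a genetic change for these 6 samples, nor whether the depots of an age came from separate animals, so the spread between libraries may be partly technical. Total counts over the listed genes lay between 782852 and 816309 in the P6 libraries and between 497044 and 671747 in the P56 libraries, and the listed genes held 2.30% to 2.69% of the TPM of a library. The table is thus a short list and not all genes of the libraries, and how its genes were picked is not known here. Of the 310 listed genes that reached the count minimum, 117 (37.7%) had all P6 values below all P56 values, 94 (30.3%) also reached the ratio of 1.3, and 70 (22.6%) met the mirrored rule and were higher at P6. Shares over the 310 genes describe that list alone and not the genes of the genome.

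The table lists none of 15 macrophage markers and none of 8 adipocyte markers (*Adgre1*, *Cd68*, *Csf1r*, *Adipoq* and *Plin1* among them), so the labelled cell type could not be checked from it. Of 60 markers in 10 cell type lists, 5 were listed, and none of the 84 genes is among them. The listed skeletal muscle markers, *Acta1* and *Neb*, summed to between 150.9 and 173 TPM at P6 and between 542 and 562 TPM at P56, nearly all of it *Acta1*. Of the 4 smooth muscle markers, *Acta2*, *Tagln* and *Cnn1* were listed and summed to between 672 and 1012 TPM at P6 and between 491 and 588 TPM at P56. The part of other cell types in the values of the 84 genes was not tested. In bulk libraries, fewer cells of a type and less RNA per cell cannot be told apart.

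The inguinal fat pad of the mouse lies under the skin and continues to grow and differentiate after birth, while adult fat stores lipid, secretes hormones and holds many resident macrophages. Macrophages depend on the growth factor CSF1, carry immune receptors that signal through the kinase SYK, and switch on inflammatory genes through factors such as IRF5. Fat cells and the cells around them are wrapped in a matrix of laminins and proteoglycans and rely on the endoplasmic reticulum to fold the proteins they secrete. The 84 genes belong to no single pathway. They were sorted by the known role of their products, with their values in view, into 12 groups and a remainder, and 83 are listed as mRNA and 1 as lncRNA.

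The ratio of the P56 mean to the P6 mean ran from 1.3 to 3.98 over the 84 genes, with a median of 1.56. It was 2 or more in 21 genes, from 1.5 to below 2 in 29 and below 1.5 in 34. The genes spanned a wide range of levels, with P56 means from 1.41 TPM in *Diras2* to 1636 TPM in *Cst3* and a median of 25.1 TPM. The other 216 listed genes past the count minimum had a median of 20.3 TPM at P56. The mean count per library lay between 27.2 and 14008, and only *Diras2*, *Rin1* and *Hspb7* had fewer than 100 counts on average. In the scatter of mean levels the members lie above the line of the rule over the whole range of levels.

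**Figure D1:**
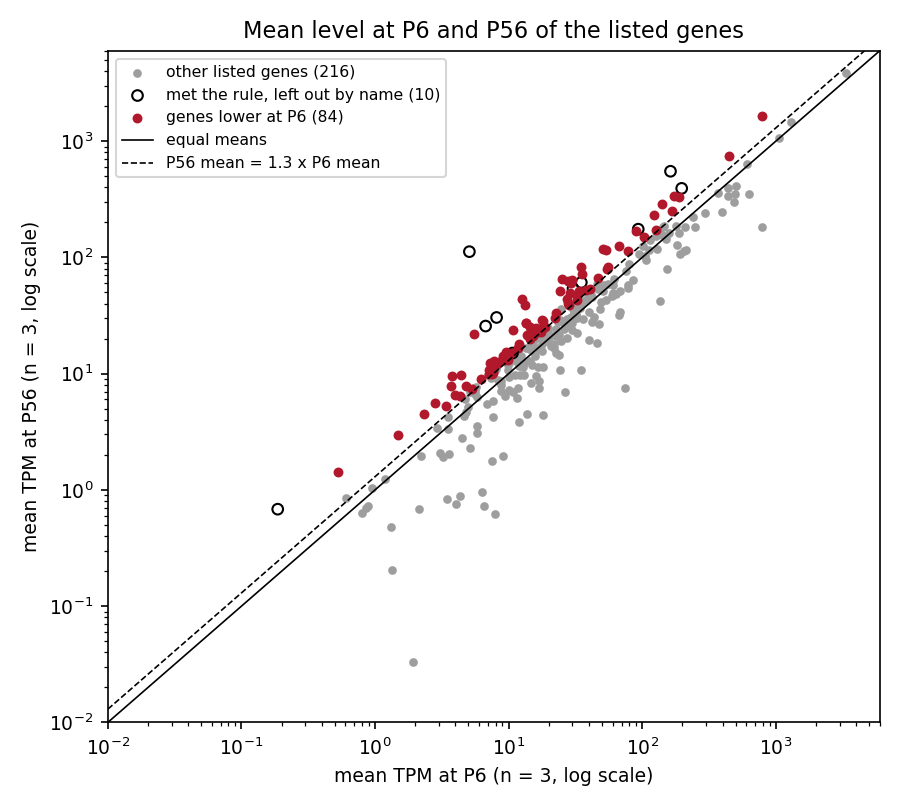
Mean TPM at P6 (horizontal, log scale) against mean TPM at P56 (vertical, log scale) of the 310 listed genes that reached the count minimum, 3 libraries per age. The 84 genes described (red) lie above the dashed line where the P56 mean is 1.3 times the P6 mean, 10 genes that met the rule but were left out by name are open circles, and the other 216 are grey.

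The largest ratio was in *9930111J21Rik1* (gene ID 667214), a member of the interferon-inducible GTPase family. Its levels were 6.02, 5.63 and 4.96 TPM at P6 and 27.1, 24.6 and 14.6 TPM at P56. Every P56 library lay above every P6 library, but P56 replicate 3 stood well below the other P56 libraries. The P56 mean was 3.98 times the P6 mean. Its estimated counts were fractional in all 6 libraries, as happens when reads are divided between related genes, so its level is uncertain.

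*Zhx3* (gene ID 320799), which encodes a transcriptional repressor with zinc fingers and homeodomains, had 12.1, 13.6 and 12.2 TPM at P6 and 46.5, 46.9 and 37.7 TPM at P56. The ages were far apart, with the lowest P56 value 2.78 times the highest P6 value, the widest such gap of the 84 genes. Its mean levels were 12.6 ± 0.828 TPM at P6 and 43.7 ± 5.19 TPM at P56 (SD, n = 3 libraries per age here and below), a ratio of 3.46. *Kifc3*, a kinesin motor that walks toward the minus end of microtubules, followed with 11.7, 13.9 and 14.4 TPM at P6 and 42.5, 40.3 and 33.4 TPM at P56 and a ratio of 2.91. *Diras2*, a small GTPase of the Ras family, had a ratio of 2.68 at very low levels of 0.53, 0.52 and 0.53 TPM at P6 and 2.27, 1.24 and 0.73 TPM at P56. Its counts were 19, 18 and 19 at P6 and 58, 32 and 17 at P56, so in P56 replicate 3 the ages are apart in TPM but not in counts. Leaving out P56 replicate 1 lowered the ratio to 1.87, and leaving out P56 replicate 3 gave 3.33.

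**Figure D2:**
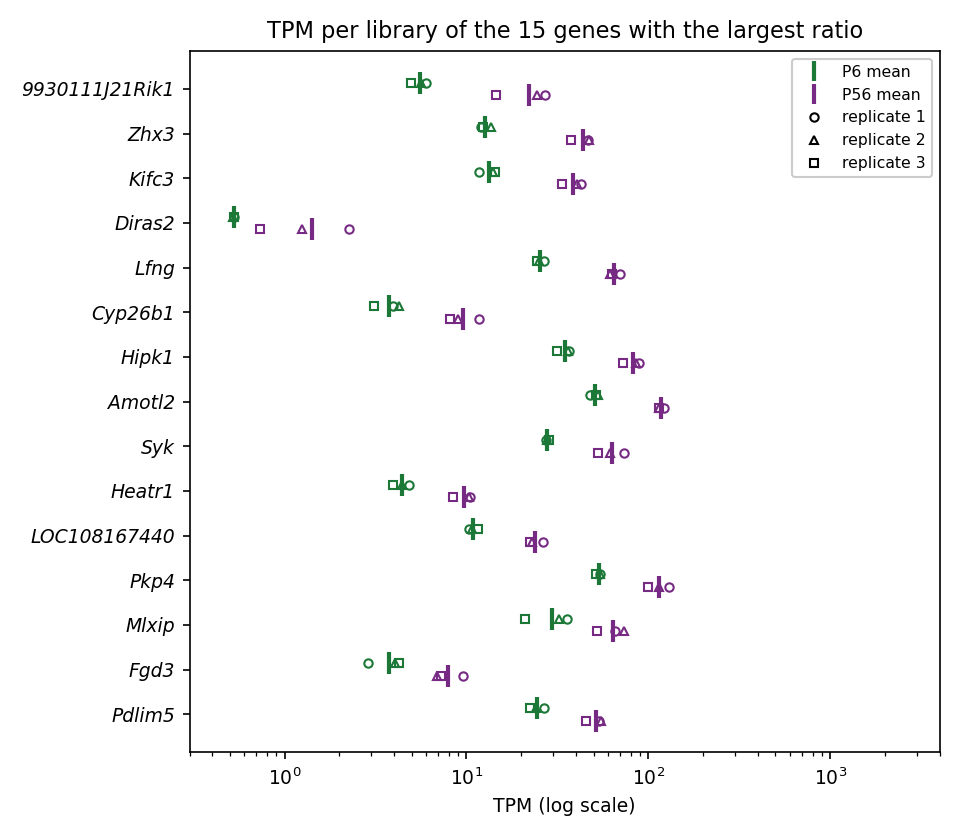
TPM (log scale) in each of the 6 libraries of the 15 members with the largest ratio of the P56 mean to the P6 mean, from 9930111J21Rik1 at the top to Pdlim5 at the bottom. Symbols are replicates and vertical ticks are means over 3 libraries. The P6 and P56 values of each gene do not overlap, as the rule requires, and P56 replicate 3 (purple squares) is the lowest P56 value in 12 of the 15 genes.

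The 250 bases before the gene start are shown for the members with the largest ratios that have a promoter window in the reference table and a match to one of 7 motifs, from RefSeq (GRCm38.p6), read 5′ to 3′ on the strand of the gene. Capitals mark matches on either strand to these motifs. The E-box, which takes factors of the helix-loop-helix family, was searched as CACGTG. The GC box, bound by the SP1 family, was searched as GGGCGG and is common in promoters rich in G and C. The CCAAT box, bound by the trimeric factor NF-Y, was searched by the letters of its name. The TATA box, where the general transcription machinery can assemble on some genes, was searched as TATAAA. The cyclic AMP element was searched as TGACGTCA and a YY1-like motif as AAGATGGC. An NRF1-like motif was searched as a repeat of the letters GCGC around any pair of bases.
*9930111J21Rik1*, chr11:48979382-48979631, reverse strand: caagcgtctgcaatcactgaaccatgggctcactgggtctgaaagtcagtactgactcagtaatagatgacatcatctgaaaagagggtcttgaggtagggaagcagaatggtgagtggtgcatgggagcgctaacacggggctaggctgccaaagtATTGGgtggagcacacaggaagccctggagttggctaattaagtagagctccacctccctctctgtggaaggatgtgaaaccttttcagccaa
*Zhx3*, chr2:160872991-160873240, reverse strand: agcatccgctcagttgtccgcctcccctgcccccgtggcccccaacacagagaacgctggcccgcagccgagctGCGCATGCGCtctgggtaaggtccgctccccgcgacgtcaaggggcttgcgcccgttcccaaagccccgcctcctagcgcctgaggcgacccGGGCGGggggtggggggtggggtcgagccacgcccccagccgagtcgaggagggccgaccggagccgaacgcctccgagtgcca
*Lfng*, chr5:140607091-140607340, forward strand: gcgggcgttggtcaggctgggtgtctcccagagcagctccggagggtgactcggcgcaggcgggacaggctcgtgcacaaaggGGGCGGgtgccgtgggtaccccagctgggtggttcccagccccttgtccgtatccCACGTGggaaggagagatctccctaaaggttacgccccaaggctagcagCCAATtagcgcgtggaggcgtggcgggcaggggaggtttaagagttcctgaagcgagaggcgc
The stretch of *9930111J21Rik1* held a single CCAAT match, that of *Zhx3* a GC box and an NRF1-like match, and that of *Lfng* an E-box, a GC box and a CCAAT match. Matches are letters in a window, not sites that were measured.

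The 4 genes sorted into developmental signalling had a median ratio of 2.43. *Lfng* encodes the fringe glycosyltransferase that modifies Notch receptors. Its levels, 26.5, 25.1 and 24.4 TPM at P6 and 69.7, 61.4 and 63.3 TPM at P56, were tight at both ages, and the means differed by a ratio of 2.56. *Cyp26b1*, an enzyme that breaks down retinoic acid, had 3.95, 4.24 and 3.1 TPM at P6 and 11.7, 8.98 and 8.11 TPM at P56, a ratio of 2.55 at low levels. *Amotl2*, an angiomotin-family scaffold that binds the co-activator YAP at cell junctions, had 47.5, 52.5 and 51.6 TPM at P6 and 122, 114 and 115 TPM at P56. With a ratio of 2.31, its mean log2 levels at the 2 ages stood 17.9 within-age SDs apart, the widest separation of the 84 genes. *Gadd45g*, a small protein induced by stress and differentiation signals, had 172 ± 12.7 TPM at P6 and 341 ± 18.1 TPM at P56.

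Among 7 genes of immune and cytokine signalling, the ratios ran from 1.37 to 3.98. *Syk*, the tyrosine kinase behind many immune receptors, had 27.3, 27.6 and 28.6 TPM at P6 and 73.5, 61.7 and 53 TPM at P56. The P6 values were nearly equal, the P56 values were spread, and the ratio of the means was 2.25. *Irf5*, a transcription factor of inflammatory gene programs, had 36.3, 33.2 and 36.9 TPM at P6 and 76.7, 70.2 and 71.1 TPM at P56, with narrow groups at both ages and a ratio of 2.05. *Csf1*, the growth factor on which macrophages depend, was among the most abundant members with 185, 196 and 190.0 TPM at P6 and 384, 344 and 261 TPM at P56 and a ratio of 1.73. Its P56 values lay well apart from each other, with replicate 3 lowest, yet all lay above the P6 values. *Trim56*, an antiviral ubiquitin ligase, came close to overlap, with 6.73, 8.95 and 7.48 TPM at P6 and 15.7, 13.3 and 9.38 TPM at P56. *Lifr*, the receptor for leukemia inhibitory factor, had a ratio of 1.55, and *Swap70*, a signalling protein of B cells and myeloid cells, had a ratio of 1.37. The receptor for CSF1 and the common macrophage markers are not among the listed genes, so no level of theirs stands beside these values.

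All 8 genes for matrix, secreted or cell surface proteins had ratios between 1.51 and 2.07 and P56 means of at least 28.2 TPM. *Cst3*, which encodes the secreted protease inhibitor cystatin C, was the most abundant member, with 811, 731 and 832 TPM at P6 and 1608, 1688 and 1612 TPM at P56. Its mean at P56 was 2.07 times that at P6, and the values of each age lay close together. *Tgm2*, the tissue transglutaminase that cross-links proteins, had 152, 136 and 135 TPM at P6 and 304, 289.6 and 278 TPM at P56, a ratio of 2.06. *Ccdc80*, a secreted protein abundant in fat, had the highest counts of the 84 genes and levels of 435, 434 and 473 TPM at P6 and 798, 736 and 706 TPM at P56. *Lamb2*, the laminin beta 2 chain of basement membranes, had 128, 119.6 and 117 TPM at P6 and 275, 238 and 189.7 TPM at P56, and *Sdc3*, a heparan sulfate proteoglycan of the cell surface, had 93.6, 93.7 and 80.7 TPM at P6 and 192, 175 and 142 TPM at P56. In both genes the P56 values were ordered alike, with replicate 1 highest and replicate 3 lowest. The remaining genes of the group were *Crim1* (a membrane protein that binds bone morphogenetic proteins), *Chst15* (a chondroitin sulfotransferase) and *Pcsk6* (a proprotein convertase), with ratios of 1.61, 1.56 and 1.51.

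Chaperones and genes of the endoplasmic reticulum made up 6 members. *Hyou1*, a chaperone of the endoplasmic reticulum induced when unfolded proteins build up, had 30.2, 28.5 and 29.7 TPM at P6 and 66.9, 61.4 and 52.2 TPM at P56, a ratio of 2.04. The sensor that drives part of that response, *Atf6*, had 16.7 ± 1.03 TPM at P6 and 22.9 ± 2.79 TPM at P56, a ratio of 1.37. *Spcs3*, a subunit of the signal peptidase, had 22.2 ± 1.48 TPM at P6 and 30.2 ± 2.18 TPM at P56, a ratio of 1.36. *Hsp90aa1*, the inducible cytosolic HSP90, had 162, 160.3 and 178 TPM at P6 and 254, 255 and 249 TPM at P56, and the P56 values differed by less from each other than the P6 values did. *Hspd1*, the chaperonin of mitochondria, had 50.6, 54.6 and 59.7 TPM at P6 and 71.8, 80.4 and 85.9 TPM at P56, a ratio of 1.44. *Hspb7*, a small heat shock protein best known from muscle, had 3.83, 3.1 and 3.23 TPM at P6 and 4.97, 4.43 and 6.47 TPM at P56, a ratio of 1.56. *Dnajc3*, a further co-chaperone of the reticulum, met the measured part of the rule and is one of the genes left out by name.

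Among 9 genes of the cytoskeleton and cell junctions, besides *Kifc3*, the larger ratios were in *Pkp4*, *Pdlim5* and *Rflnb*. *Pkp4*, an armadillo-repeat protein of junctions, had 54.3, 54.1 and 51.6 TPM at P6 and 130.4, 114 and 99.9 TPM at P56, a ratio of 2.15. *Pdlim5*, a PDZ and LIM domain protein that binds actinin, had 24.3 ± 2.12 TPM at P6 and 51.3 ± 5.25 TPM at P56. *Rflnb*, which binds filamin, had 68, 67.8 and 63.9 TPM at P6 and 132, 125 and 122 TPM at P56, narrow at both ages, with a ratio of 1.9. *Myo1c*, a membrane-bound myosin that takes part in moving the glucose transporter GLUT4 to the surface, had 128 ± 4.89 TPM at P6 and 171 ± 7.32 TPM at P56, a ratio of 1.34. *Cep350*, a centrosomal protein, and *Macf1*, a giant linker of actin and microtubules, had ratios of 1.4 and 1.39.

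The 10 genes of chromatin and transcription had a median ratio of 1.53. *Kmt2d* and *Kmt2a* encode large methyltransferases that mark histone H3 at lysine 4. *Kmt2d* had 13.3, 15 and 12.1 TPM at P6 and 33, 26.5 and 22.2 TPM at P56, a ratio of 2.02, and *Kmt2a* had 15, 15.9 and 12.9 TPM at P6 and 27.9, 24.5 and 18.1 TPM at P56, a ratio of 1.61. In both genes P56 replicate 1 was the highest and P56 replicate 3 the lowest of the adult libraries. *Ash1l*, which methylates lysine 36 of histone H3, had a ratio of 1.33. *Mlxip*, the glucose-responsive factor MondoA, had 35.5, 32.3 and 21.1 TPM at P6 and 65.2, 73.5 and 52.3 TPM at P56, with wide spread at both ages and a ratio of 2.15. *Dmrt2*, a DM-domain transcription factor, had 16.3, 17.5 and 19.6 TPM at P6 and 23, 27.1 and 36.1 TPM at P56, and here P56 replicate 3 was the highest library. *Mga*, a partner of MAX, *Bdp1*, a subunit of the RNA polymerase III initiation factor, *Brwd1*, a bromodomain protein, and *Fam208b*, named *Tasor2* in RefSeq, had ratios of 1.46, 1.45, 1.33 and 1.37. *Fam208b* had the narrowest gap of all 84 genes, with a highest P6 value of 8.31 TPM and a lowest P56 value of 8.37 TPM. Estimated counts were fractional in all 6 libraries for *Mga* and in 5 for *Fam208b*, so their levels are uncertain too. Of 9 listed genes in a list of chromatin and histone modifiers selected by symbol, 3 were lower at P6 by the measured part of the rule (*Kmt2a*, *Kmt2d* and the left-out *Aff1*) and 1 was higher, a share lower of 33.3% beside 30.3% of all 310 genes. A list of transcription factors and nuclear receptors caught 4 listed genes by symbol (*Foxc2*, *Klf6*, *Mef2c* and *Zfp469*). None of these met the rule and 2 were higher at P6. That list misses factors among the members, such as *Zhx3*, *Mlxip* and *Dmrt2*.

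The 4 members that serve in making ribosomes spanned ratios from 1.39 to 2.21 at low levels. *Heatr1*, a nucleolar protein needed for ribosomal RNA transcription and processing, had 4.83, 4.43 and 3.94 TPM at P6 and 10.4, 10.4 and 8.39 TPM at P56, a ratio of 2.21. *Mdn1*, the giant ATPase that matures the large ribosomal subunit, had 2.46, 2.34 and 2.15 TPM at P6 and 5.58, 4.6 and 3.26 TPM at P56, a ratio of 1.93. *Pdcd11*, a ribosomal RNA processing factor, had a ratio of 1.5, and *Polr1a*, the largest subunit of RNA polymerase I, had 9.6 ± 0.796 TPM at P6 and 13.3 ± 0.634 TPM at P56, a ratio of 1.39.

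The 6 kinases other than *Syk* included *Hipk1*, a nuclear kinase that binds homeodomain proteins, with 36.6, 36.4 and 31.6 TPM at P6 and 88.5, 85.7 and 72.7 TPM at P56 and a ratio of 2.36. *Wnk1*, a kinase that controls ion transport and cell volume, had 79.4, 81.6 and 72.4 TPM at P6 and 132, 117 and 94.6 TPM at P56, a ratio of 1.47. *Smg1*, the kinase of nonsense-mediated RNA decay, had 13.6 ± 1.46 TPM at P6 and 21.5 ± 3.9 TPM at P56. *Pdpk1*, which activates AKT downstream of insulin, had 15.1 ± 1.41 TPM at P6 and 21.1 ± 2.76 TPM at P56, a ratio of 1.4. The kinases *Lrrk1* and *Lmtk2* had ratios of 1.52 and 1.31. Of 6 listed genes that a list of kinases and phosphatases caught by symbol, *Wnk1* alone (16.7%) was lower by the rule and 2 were higher at P6, counts too small to set against the 30.3% and 22.6% of all 310 genes.

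A list of the ubiquitin system caught 11 listed genes by symbol. Of these, 7 (63.6%) met the rule and 1 was higher at P6, beside 30.3% lower over all 310 genes. The median log2 ratio (P6 over P56) of the 11 was -0.45. The count describes a list drawn up with earlier results of these data known. It misses other listed genes of that system, such as the ligases *Cbl* and *Rbbp6*, which did not meet the rule. The share would be lower with them. The 7 were *Herc1*, *Herc2*, *Huwe1*, *Birc6*, *Rnf150* and *Trim56*, all ligases or ligase-like enzymes that attach ubiquitin, and the deubiquitinase *Usp24*. *Herc1* had 9.52, 9.93 and 9.4 TPM at P6 and 17.1, 16.3 and 12.8 TPM at P56 and *Herc2* had 10.7, 10.9 and 9.93 TPM at P6 and 17.6, 15.5 and 12.4 TPM at P56. *Huwe1* had 41.2, 45.1 and 36.7 TPM at P6 and 57.4, 55.9 and 47.3 TPM at P56, and *Birc6*, which also blocks caspases, had 16.8, 19.1 and 15.7 TPM at P6 and 27.1, 25 and 20.0 TPM at P56. In all 4, replicate 3 was the lowest of the P56 libraries and replicate 1 the highest. *Rnf150* and *Usp24* had ratios of 1.68 and 1.36. Excepting *Trim56* and *Rnf150*, these transcripts exceed 10000 bp, a length at which P56 replicate 3 was low in general.

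The 12 genes of membranes and traffic all had lower TPM in P56 replicate 3 than in the mean of the other P56 libraries. *Vps13a*, which transfers lipid between membranes, had 3.08, 2.78 and 2.53 TPM at P6 and 6.08, 5.78 and 4.77 TPM at P56, a ratio of 1.98. *Lyst*, the regulator of lysosome size mutated in the beige mouse, had 5.04, 4.92 and 4.36 TPM at P6 and 8.94, 7.95 and 6.62 TPM at P56, and its relative *Nbeal1* had 4.31 ± 0.478 TPM at P6 and 6.41 ± 1.07 TPM at P56. *Dysf* and *Myof*, the ferlins of membrane repair and fusion, had nearly equal ratios of 1.48 and 1.47, with 32.4 ± 0.36 TPM at P6 and 47.9 ± 6.55 TPM at P56 for *Dysf*. *Lnpep*, an aminopeptidase stored in the same vesicles as GLUT4, had 11.7 ± 1.6 TPM at P6 and 16.5 ± 2.29 TPM at P56, a ratio of 1.41. The adaptors *Ehbp1l1*, *Fnbp1* and *Hip1*, which link membranes to actin or clathrin, had ratios of 1.71, 1.54 and 1.3. The other genes of the group were *Htt* (huntingtin), *Ipo7* (a nuclear import receptor) and *Dmxl1* (a partner of the proton pump), with ratios of 1.54, 1.48 and 1.36. Of 13 listed genes that a list of membrane traffic and autophagy caught by symbol, which also takes muscle genes such as *Myom1*, 6 (46.2%) met the rule, beside 30.3% of all 310 genes, namely *Kifc3*, *Lyst*, *Myo1c*, *Myof*, *Nbeal1* and *Vps13a*, and none was higher at P6, beside 22.6%.

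Small GTPases and their regulators were represented by *Fgd3*, an exchange factor for CDC42, *Rin1*, an exchange factor for RAB5, and *Ralgapa1*, a brake on RAL GTPases that acts downstream of insulin, besides *Diras2*. *Fgd3* had 2.89, 4.04 and 4.26 TPM at P6 and 9.56, 6.88 and 7.23 TPM at P56, a ratio of 2.12, and *Rin1* had 1.32, 1.32 and 1.82 TPM at P6 and 3.43, 3.14 and 2.34 TPM at P56, both low. *Ralgapa1* had 17.6 ± 1.78 TPM at P6 and 23 ± 1.76 TPM at P56. In lipid metabolism, *Fads3*, a desaturase-family enzyme, had 46, 47.7 and 46.8 TPM at P6 and 56, 62.4 and 82.8 TPM at P56, and *Ttc39b*, linked to sterol metabolism, had 5.28 ± 0.377 TPM at P6 and 7.45 ± 0.883 TPM at P56. *Fads3* was highest in P56 replicate 3, and without that library its ratio was 1.27, below the limit of the rule. The remainder were the lncRNA *LOC108167440* (*AU020206* in RefSeq), *Fam124a*, *Tmem245*, *Crybg3*, *D5Ertd579e* and *Mrvi1*, the last a substrate of the cyclic GMP kinase in smooth muscle. *LOC108167440* had 10.3, 10.7 and 11.6 TPM at P6 and 26.4, 22.9 and 22.4 TPM at P56, a ratio of 2.2, and the ratios of the other 5 lay between 1.32 and 1.75.

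The other lists selected by symbol held few members. In adhesion and matrix, 2 of 18 listed genes (11.1%) met the rule, *Lamb2* and the left-out *Col4a5*, and 7 were higher at P6, beside 30.3% lower and 22.6% higher over all 310 genes, though 3 genes of that list (*Tnfrsf11b*, *Tnfrsf12a* and *Tnpo2*) were caught by their letters and are no matrix genes. None of 7 channels and transporters met it and 3 were higher. The list of small GTPase regulators caught 2 listed genes, *Arhgef17* and *Rab3b*, and misses the members sorted to that role above. Neither these nor the 2 listed genes for RNA binding and translation met the rule or were higher at P6. The lists of lipid and of interferon-induced genes held 1 listed gene each, the left-out *Aldh1a7* and *9930111J21Rik1*.

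**Figure D3:**
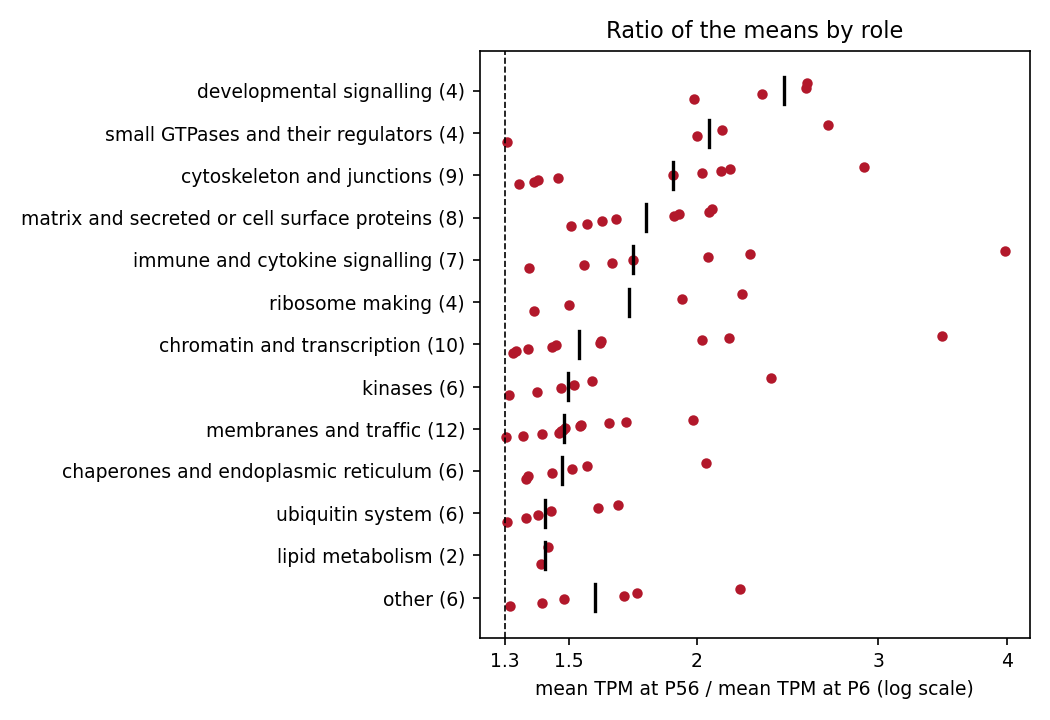
Ratio of mean TPM at P56 to mean TPM at P6 (log scale) of the 84 genes by role, with the number of genes in brackets. Each point is a gene, black bars are medians and the dashed line is the limit of 1.3 used to choose the genes, so no point can lie to its left. Medians range from 1.42 in lipid metabolism and the ubiquitin system to 2.43 in developmental signalling, and the ranges of the groups overlap. The genes were sorted with their values in view, so nothing is read from the order of the medians.

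At the limit of the rule, the members with the smallest ratios were *Hip1* (1.3), *Ralgapa1* (1.31) and *Huwe1* (1.31). The genes just outside it were *Glipr1*, the dystrophin relative *Utrn* and *Prdm16*, a regulator of brown and beige fat, with ratios of 1.29 each. *Prdm16* had 5.02, 5.12 and 3.9 TPM at P6 and 6.58, 6.02 and 5.5 TPM at P56, without overlap but short of the limit. A further 11 genes reached the ratio but not the separation of the ages, *Cbl* and *Ago3* among them. In 10 of the 11 the lowest P56 value, which overlapped the P6 values, was that of replicate 3, and the eleventh was *Smoc1*, where it was replicate 1.

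The spread between libraries was smaller at P6 than at P56. The median SD of log2 TPM over the 84 genes was 0.10 at P6 and 0.20 at P56, and 69 genes (82.1%) were more spread at P56, beside 168 (77.8%) of the other 216 genes. Pooled over the ages, the median SD was 0.16 in the members and 0.17 in the rest of the list. In 11 members the lowest P56 value was less than 1.1 times the highest P6 value, and the median of that gap over all 84 was 1.25.

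P56 replicate 3 was the lowest P56 library in 72 of the 84 genes (85.7%), and in 176 of the other 216 (81.5%). Its median deviation from the mean of replicates 1 and 2 was -0.30 on the log2 scale in the members and -0.26 in the others. Across the 83 members with an annotated coding transcript, the deviation and transcript length had a Spearman correlation of -0.53 (-0.49 across 213 others), a description over genes that share the same libraries. In the 22 members with transcripts of 10000 bp or more its median was -0.37, and in the 16 below 4000 bp it was -0.04. P56 replicate 3 also had the least depth, at 0.795 of the mean of the 6 libraries, and the part of depth or length in its low values was not tested. P6 replicate 3, the lowest P6 library in 50 members (59.5%), had a correlation of -0.48 between its deviation and transcript length, and P6 replicate 2 and P56 replicates 1 and 2 had correlations of 0.55, 0.45 and 0.35. Among the other 216 genes, P6 replicate 3 was the lowest P6 library in 145 (67.1%). Across those with a length, the same correlations, in that order, were -0.41, 0.51, 0.41 and 0.24. Each deviation is taken from the other libraries of its age, so the values within an age are tied to each other.

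In 7 members P56 replicate 3 was instead the highest P56 library, *Dmrt2*, *Fads3*, *Hspb7*, *Hspd1* and *Gadd45g* among them. The transcripts of these 5 measured between 1071 and 3687 bp, and the deviation ran from 0.11 to 0.53. *Acta1*, the muscle actin, was not highest there, with 562, 551 and 542 TPM in P56 replicates 1, 2 and 3.

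**Figure D4:**
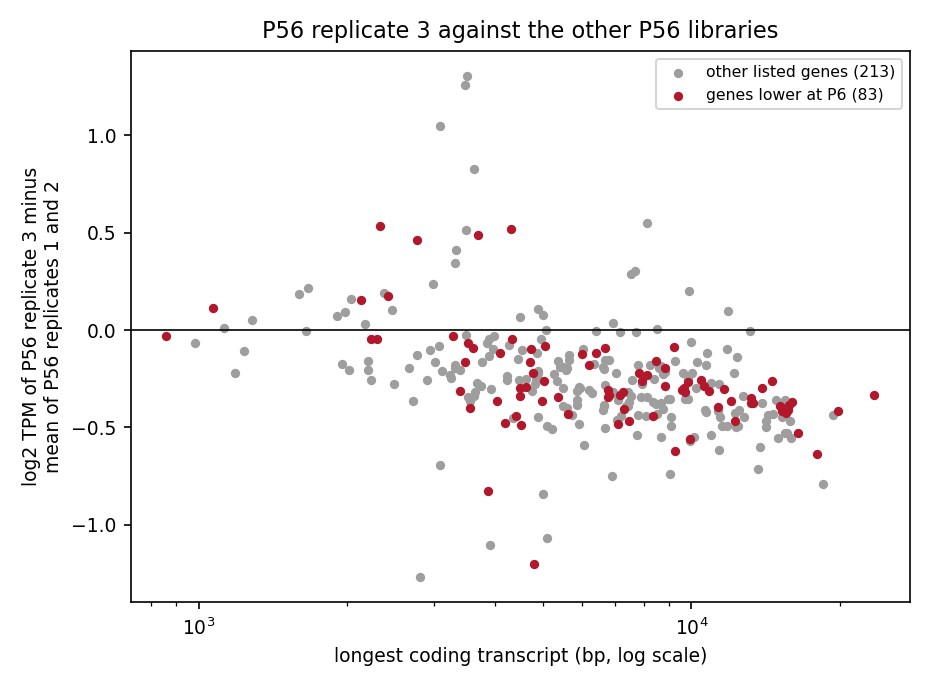
Deviation of log2 TPM in P56 replicate 3 from the mean of P56 replicates 1 and 2 (vertical) against the length of the longest coding transcript (bp, log scale) for 83 of the genes lower at P6 (red) and 213 other listed genes (grey). Most points lie below 0, and the red points at 10000 bp and above have a median of -0.37.

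In features the rule did not use, the members were near the rest of the list. Their longest coding transcripts had a median length of 6803 bp, against 6311 bp in the other listed genes and 2772 bp in 20871 coding genes of the GENCODE annotation. They had a median of 19 exons and 3087 coding bases, against 16 exons and 2936 coding bases in the others and 7 exons and 1188 coding bases in all coding genes. At least 10000 bp was reached by 26.5% of the members, 20.6% of the others and 2.03% of all coding genes. *Macf1* had the longest, with 23495 bp, and *Cst3* the shortest, with 860 bp. Within the 83 members the ratio of the means and transcript length had a Spearman correlation of -0.37, again a description across genes. The median GC content of the transcripts was 50.1%, 49.6% and 49.2% in the same 3 sets.

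Promoter windows of 300 bases (250 before to 50 after the gene start, the first window listed per gene) were found by gene ID for 71 of the 84 genes. Both strands were searched and matches were allowed to overlap. A GC box occurred in 50 windows (70.4%), beside 69.1% of 165 windows of other listed genes and 35.9% of 27025 windows of all genes in the reference table. The median GC content of the windows was 63.7%, 64.7% and 52.7% in these 3 sets. A CCAAT box occurred in 31.0% of the member windows, 37.6% of the others and 37.9% of all, and a TATA box in 7.04%, 14.5% and 14.2%. The shares were 7.04%, 11.5% and 7.24% for the E-box, 8.45%, 10.3% and 6.43% for the NRF1-like motif and 1.41%, 3.03% and 2.88% for the YY1-like motif. For the GC box, the members lay nearer to the other listed genes than to all windows.

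The cyclic AMP element is bound by CREB, which acts where adrenergic receptors raise cyclic AMP, as in fat. It occurred in 3 member windows (4.23%), those of *Bdp1*, *Ralgapa1* and *Htt*, in 4.85% of the others and in 1.88% of all windows. The stretches of these 3 genes are shown with that of *Pkp4*, which held the most matches of the member windows, as RefSeq (GRCm38.p6) gives them, with capitals as above.
*Bdp1*, chr13:100104071-100104320, reverse strand: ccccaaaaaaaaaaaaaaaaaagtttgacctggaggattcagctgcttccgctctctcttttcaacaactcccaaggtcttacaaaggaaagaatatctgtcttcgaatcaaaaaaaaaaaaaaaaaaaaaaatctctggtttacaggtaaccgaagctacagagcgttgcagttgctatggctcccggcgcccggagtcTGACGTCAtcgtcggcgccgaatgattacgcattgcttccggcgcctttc
*Ralgapa1*, chr12:55821168-55821417, reverse strand: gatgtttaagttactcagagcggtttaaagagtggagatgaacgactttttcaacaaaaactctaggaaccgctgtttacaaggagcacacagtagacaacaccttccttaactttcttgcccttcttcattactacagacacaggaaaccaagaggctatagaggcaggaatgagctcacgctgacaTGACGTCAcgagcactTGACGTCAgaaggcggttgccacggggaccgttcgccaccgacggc
*Htt*, chr5:34761490-34761739, forward strand: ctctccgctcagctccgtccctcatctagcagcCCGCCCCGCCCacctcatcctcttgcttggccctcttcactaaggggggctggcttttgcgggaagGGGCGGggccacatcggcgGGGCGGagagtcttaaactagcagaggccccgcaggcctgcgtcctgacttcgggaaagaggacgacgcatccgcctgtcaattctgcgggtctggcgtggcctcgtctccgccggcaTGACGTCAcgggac
*Pkp4*, chr2:59160600-59160849, forward strand: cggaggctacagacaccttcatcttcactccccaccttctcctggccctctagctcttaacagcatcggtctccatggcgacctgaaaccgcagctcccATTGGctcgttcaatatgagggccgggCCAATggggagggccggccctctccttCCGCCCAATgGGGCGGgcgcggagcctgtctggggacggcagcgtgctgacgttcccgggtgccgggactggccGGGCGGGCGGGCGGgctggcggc
*Ralgapa1* held 2 cyclic AMP elements, *Bdp1* and *Htt* 1 each, and *Htt* also 4 GC boxes. *Pkp4* held 5 GC boxes and 3 CCAAT boxes, some of which overlap. The ratio was 1.45 in *Bdp1*, 1.31 in *Ralgapa1*, 1.54 in *Htt* and 2.15 in *Pkp4*.

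The scale on which levels are compared moves the ratios of all genes together. The median log2 ratio (P6 over P56) of the 310 genes was -0.15 on TPM, -0.03 on FPKM, -0.02 on counts at recovered depth (estimated by dividing counts by FPKM), and 0.34 on counts with equal library sizes. The median of the 84 genes was -0.64, -0.53, -0.53 and -0.17 on the same scales, which is 0.49 to 0.51 below that of all 310 genes each time. All 84 had a lower mean at P6 on TPM, FPKM and counts at recovered depth, and 82 kept the ages apart on the latter 2, where 33.5% (FPKM) and 33.9% (recovered depth) of all 310 genes had every P6 value below every P56 value. With equal library sizes, which ignore that the P6 libraries were sequenced more deeply, 68 had a lower mean at P6 and 26 kept the ages apart, beside 33 (10.6%) of all 310 genes. As the rule used this contrast, nothing is read from these counts. The 16 that did not have a lower mean on that scale, *Ash1l*, *Atf6*, *Huwe1*, *Myo1c* and *Pdpk1* among them, had ratios of at most 1.4 on TPM.

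**Figure D5:**
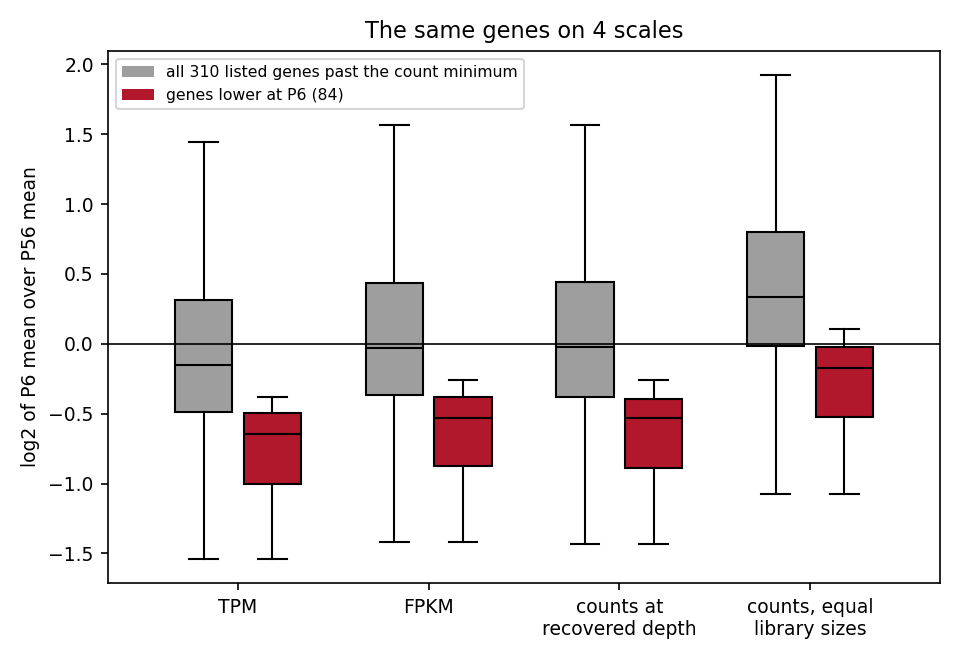
Log2 ratio of the P6 mean to the P56 mean on 4 scales for all 310 listed genes past the count minimum (grey) and for the 84 genes lower at P6 (red). Boxes span the quartiles with the median as a line, whiskers reach the furthest gene within 1.5 box heights, and genes beyond are not drawn. The red median moves from -0.64 on TPM to -0.17 on counts with equal library sizes as the grey median moves from -0.15 to 0.34.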

How the data were processed

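The labels name 6 samples, 3 at P6 and 3 at P56. Sequencing was on the BGISEQ-500, and the submitters' processing notes list HISAT, Bowtie2, RSEM and DESeq2, with no version. The build was not given in the sources used here. Deposited by the authors were unnormalized estimated counts, TPM scaled by transcript length to an equal total per library, and FPKM scaled by length and library total. Columns with the authors' own log2 ratio, p-value and q-value were not used.

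The rule was applied in Python 3.11.15 (pandas 2.3.3) to the deposited TPM and counts as given. No test was run, because the P6 to P56 contrast chose the genes. The members and the gene lists were chosen with earlier results of these data known. Genes named with values per library include the 15 largest ratios, the 10 highest P56 means and list members, except that 2 members are counted but not reported here by name. Relative depth is the median ratio of count to FPKM over 196 genes above 5 FPKM in every library. Transcripts came from GENCODE M21 (GRCm38) by Entrez ID, promoter windows from RefSeq. The number of libraries limits precision, and low counts widen it. Alternatives were FPKM, counts with and without correction for depth, other count minimums, log2(TPM + 1) and each replicate left out.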

Additional observations from a re-analysis of the deposited data

How the results depend on the processing

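The choice of scale mattered most. Counts with equal library sizes are the estimated counts without correction for the greater depth of the P6 libraries. They left 25 genes meeting the rule in place of 84, all among the 84. The median log2 ratio (P6 over P56) of the 84 moved from -0.64 to -0.17. FPKM gave 62 genes and counts at recovered depth 64, with medians of -0.53 and -0.53. A mean of at least 50 counts gave 83 genes, no count minimum 84, and the difference of mean log2(TPM + 1) a median of -0.61. With each replicate left out in turn, between 76 and 108 genes met the rule on the other 5 libraries and the median ranged from -0.73 to -0.60. The highest number came without P56 replicate 3, and 82 of the 84 genes were among the 108. Of the 84, between 75 and 84 still met the rule without any 1 library. Leaving out a library cannot undo their separation of the ages, so only the ratio and the count minimum could fail. This count is therefore no check of the separation. No paired analysis was possible because the result comes from no test. Depth limits *Diras2*, *Rin1* and *Hspb7* most.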
